A study of Rattus norvegicus with 16 samples.

Results

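The 10 genes described here encode transcription factors, or partners of transcription factors, that act in the Schwann cell lineage, in myelination or in the repair response to nerve injury. They are Sox10, Egr2, Pou3f1, Zeb2, Sox2, Id2, Pax3, Olig1, Runx2 and Cited2, taken by name from the 31038 genes quantified in every library. A gene was tested where its counts passed a filter on low values, which 9 of the 10 did in purified Schwann cells (Olig1 did not), 8 in whole nerve (neither Olig1 nor Pax3 did) and 9 in the fit across both tissues (Olig1 did not).

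RNA was sequenced from the rat sciatic nerve, either uncrushed or collected 3, 5 or 7 days post-crush, as whole nerve and as Schwann cells purified from it, with 2 libraries in each of the 8 groups and 16 libraries in all. The purified cells came from nerves that were digested and dissociated, depleted of cells carrying CD45 (a leukocyte surface protein) and Thy1 (carried by fibroblasts), and then selected for O4, a sulfatide-type lipid antigen of the Schwann and oligodendrocyte lineages; whole nerve was extracted without dissociation. Each library pooled at least 10 nerves, the injured groups held the segment distal to the crush and the uncrushed groups the matching segment without a sham operation. All groups carry the label postnatal day 18, which the methods of the study give as the age at crush, so the injured nerves were older at collection by their days post-crush, and age and time since crush cannot be told apart. The replicates are separate pools by their labels only, with 2 libraries per group. The p-values rest on the spread between libraries of a group, estimated over all groups of a fit and drawn toward that of other genes. In whole nerve, fewer cells of a type and less RNA per cell cannot be told apart.

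Total expected counts were 10555067 to 27562637 per library. The purified libraries held less of other cells: the 6 macrophage markers summed to 2.45 to 12.5 FPKM (fragments per kilobase of transcript scaled to library size, a level per length) in Schwann cell libraries against 119 to 548 FPKM in whole nerve, and the macrophage sum in whole nerve rose from 119 to 132 FPKM uncrushed to 525 to 548 FPKM at day 3. The 5 fibroblast markers summed to 241 to 575 FPKM in Schwann cell libraries and 3960.0 to 6005 FPKM in whole nerve. Skeletal muscle markers summed to 23.9 FPKM in one uncrushed whole nerve library and 585 FPKM in the other. The 10 immediate-early genes (Fos, Fosb, Junb, Egr1, Egr3, Ier2, Atf3, Nr4a1, Btg2 and Dusp1), which are induced within minutes by many stimuli, summed to 2670 and 3115 FPKM in uncrushed Schwann cells against 39.6 and 51.7 FPKM in uncrushed whole nerve. After crush their sums were 846 to 1138 FPKM in Schwann cells and 103 to 162 FPKM in whole nerve. This list was drawn up after the values had been seen.

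Schwann cells arise from the neural crest and pass through precursor, immature and promyelinating stages before some of them wrap axons in myelin. Sox10 is needed at every stage. With Pou3f1 it switches on Egr2, and Sox10 and Egr2 together drive the myelin genes, while Zeb2 silences inhibitors of that step. Sox2, Id2 and Pax3 mark or maintain the immature and non-myelinating state. After injury the cells leave the myelinating state and become repair cells, a change in which factors that are low in the intact nerve, such as Runx2, can be switched on.

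Promoter sequence is shown for Egr2 and Runx2, the members with the furthest fall and the furthest rise in whole nerve at day 3, because both moved strongly in both tissues. The windows are the 250 bases before the annotated start in RefSeq on the GRCr8 assembly, in which 7 of the 10 genes had an entry (Runx2 with 2 starts), while the reads were aligned to Rnor_6.0. Capitals mark a motif match. The Egr2 window lies at chr20:21054442-21054691 on the minus strand and holds a CArG box, the element bound by serum response factor, that begins 83 bases before the start. The window of one of the Runx2 starts lies at chr9:23664808-23665057 on the plus strand and holds the RUNX motif AACCACA, the binding letters of the Runx family itself, 77 bases before the start.
Egr2: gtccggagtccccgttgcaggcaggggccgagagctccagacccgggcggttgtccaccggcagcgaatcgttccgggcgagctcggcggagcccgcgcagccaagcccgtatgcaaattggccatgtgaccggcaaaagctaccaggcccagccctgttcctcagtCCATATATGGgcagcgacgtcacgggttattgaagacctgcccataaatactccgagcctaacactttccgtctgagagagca
Runx2: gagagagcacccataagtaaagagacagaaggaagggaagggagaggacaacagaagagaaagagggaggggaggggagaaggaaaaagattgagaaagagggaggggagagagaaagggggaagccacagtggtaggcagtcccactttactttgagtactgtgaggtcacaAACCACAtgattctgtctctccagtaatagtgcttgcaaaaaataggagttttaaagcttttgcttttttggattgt
A CArG box was present in 1.5% and the RUNX motif in 4.59% of 33469 promoters of the same length, searched on both strands. The other motifs searched were AP-1 (TGANTCA, in 6.34% of promoters), EGR (GCGNGGGCG, 4.29%), ZEB (CAGGTG, 15.9%), SOX (ACAAAG, 16.3%), CREB (TGACGTCA, 1.59%) and TEAD (GGAATG, 12.1%). Across the 8 windows of these genes the one further match was a SOX motif 139 bases before the Zeb2 start. A match here is a description of letters, not a binding site.

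Egr2, the zinc finger factor that drives myelination, fell after crush in both tissues and then partly recovered. In Schwann cells Egr2 stood at 270.0 and 286 FPKM uncrushed, 32.2 and 30.7 (day 3), 81.8 and 72.9 (day 5), then 85.5 and 106 (day 7). In whole nerve it stood at 36.2 and 41.2 FPKM uncrushed, 4.38 and 6.10 (day 3), 9.41 and 10.9 (day 5), then 15.7 and 19.6 (day 7). The 4 groups of each tissue did not overlap, and in both the order from high to low was uncrushed, day 7, day 5, day 3. Against uncrushed, Egr2 fell 8.68-fold in Schwann cells at day 3 (log2 fold change -3.12, SE 0.135, edgeR quasi-likelihood test, Benjamini-Hochberg adjusted p = 1.32e-07), and the log2 fold change was -1.89 at day 5 and -1.60 at day 7 (adjusted p = 2.28e-06 and 9.13e-06). In whole nerve it fell 9.89-fold at day 3 (log2 fold change -3.31, SE 0.17, adjusted p = 1.66e-07), with -2.35 at day 5 and -1.54 at day 7. Egr2 then rose from day 3 to day 5 and day 7 in Schwann cells (log2 fold change 1.22 and 1.51, adjusted p = 5.52e-04 and 6.54e-05) and from day 3 to day 7 in whole nerve (1.76, adjusted p = 6.89e-05). The difference in its injury effect between the tissues was 0.09 (SE 0.217) at day 3, 0.33 (SE 0.215) at day 5 and -0.18 (SE 0.213) at day 7 on the log2 scale, none of which passed the test (adjusted p = 0.827, 0.281 and 0.594).

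Egr2 was 5.86-fold higher in Schwann cells than whole nerve when uncrushed and 6.21-fold, 7.38-fold and 5.18-fold higher on the injury days in order (each with adjusted p of 1.74e-08 or less). The myelin genes that Egr2 and Sox10 activate had the opposite difference in the uncrushed nerve. Of 15 such targets 12 were lower and 3 higher in Schwann cells than whole nerve, beside 35.3% lower and 29.1% higher among all genes tested, with a median log2 difference of -1.35 beside -0.10. Cnp and Mag were among those that were higher, by 0.82 and 0.52 on the log2 scale. After crush the targets fell with Egr2: 13 of 15 were lower and 0 higher in Schwann cells at day 3 (median log2 fold change -3.38; the other 2 were Gjb1 at -0.27 and Cnp at 0.00097), and 15 of 15 were lower in whole nerve (median -5.68). Among all genes 25.7% were lower and 26.9% higher in Schwann cells at day 3, and 22.5% were lower and 23.1% higher in whole nerve. Among the targets named by rule, Prx, which organises the myelin sheath from its outer side, changed by -6.01 and Mag, an adhesion protein of the innermost wrap, by -5.90 on the log2 scale in Schwann cells, against -0.54 for Pllp and -1.15 for Ugt8. The 10 immediate-early genes were all higher in the uncrushed Schwann cell libraries (median log2 difference 5.17), and 9 of the 10 fell in Schwann cells at day 3 while 5 rose and 0 fell in whole nerve, to be read beside the same shares of all genes. Whether that difference has a part in the Egr2 level of dissociated cells was not tested.

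**Figure D1:**
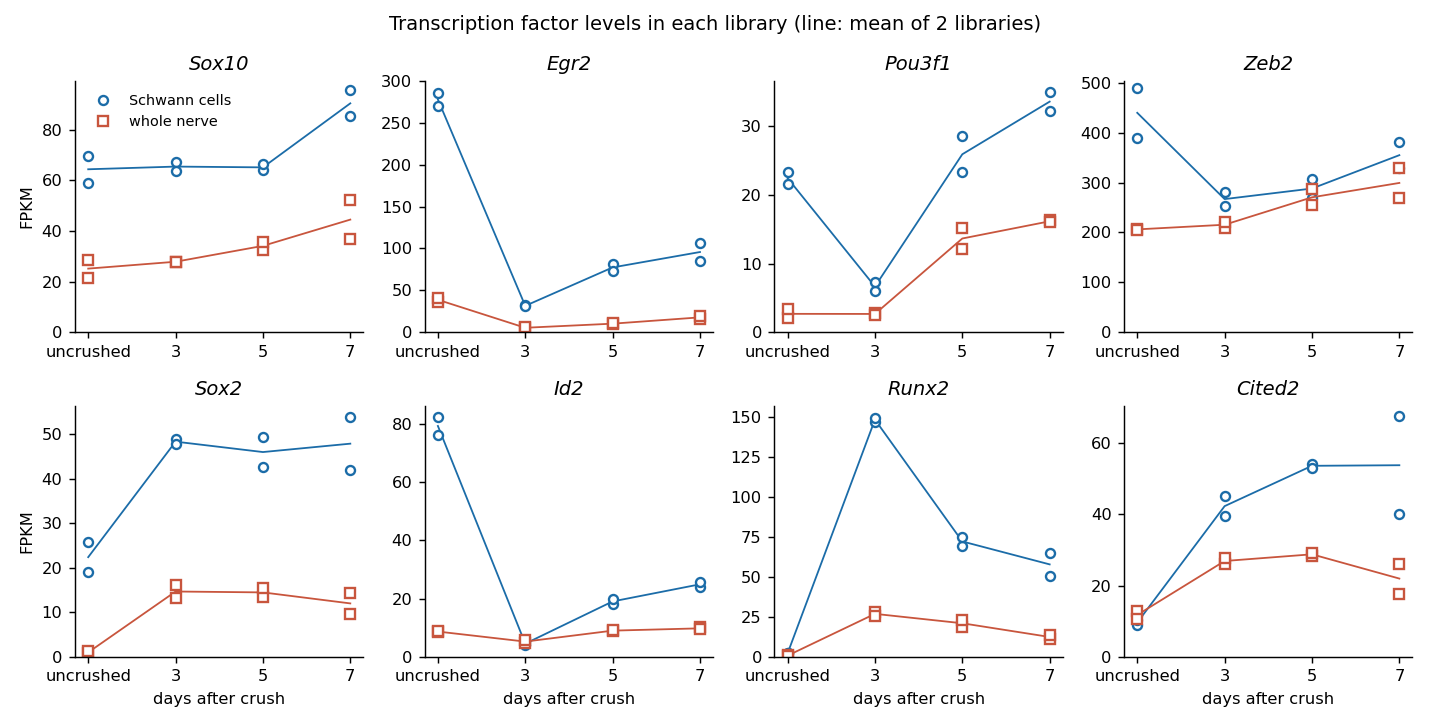
Level of 8 of the 10 genes in each library, in FPKM on a linear axis from 0, by days post-crush; circles are Schwann cell libraries, squares whole nerve libraries, and lines join the means of 2 libraries. Egr2 and Id2 are highest in uncrushed Schwann cells and lower at day 3, while Runx2 is near 0 uncrushed and highest at day 3.

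Sox10, the lineage factor, was not called at days 3 and 5 in either tissue and was higher at day 7 in Schwann cells. The Schwann cell libraries held it at 59.1 and 69.6 FPKM uncrushed, 67.2 and 63.6 (day 3), 63.9 and 66.3 (day 5), then 85.3 and 95.5 (day 7). The first 3 groups overlapped and both day 7 libraries were above them. Sox10 was called higher at day 7 (log2 fold change 0.45, SE 0.116, adjusted p = 0.0106), and the call was lost without day 7 replicate 2 (adjusted p = 0.0689) and in a fit of the 4 libraries compared (adjusted p = 0.0572), with 0.00141 to 0.0689 over all alternatives. At days 3 and 5 the log2 fold change was 0.07 and -0.01 (SE 0.115 and 0.116, adjusted p = 0.621 and 0.938).

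In whole nerve Sox10 stood at 21.5 and 28.7 FPKM uncrushed, 27.8 and 27.9 (day 3), 32.6 and 35.6 (day 5), then 36.9 and 52.1 (day 7). Here the FPKM and the fitted fold change part ways at day 3. In the fit of all 16 libraries the normalisation factor of the uncrushed whole nerve libraries was 0.82, against 0.99 to 1.07 in the others. A low factor lifts the scaled values of a library. The fold changes below come from the separate fit of whole nerve, whose own factors are not given. The fitted log2 fold change was -0.26, 0.04 and 0.42 at days 3, 5 and 7, and none of the 3 passed the test (adjusted p = 0.234, 0.871 and 0.0795, the last called under 7 of the alternatives). At every time Sox10 was higher in Schwann cells than whole nerve, by 2.08-fold uncrushed and 2.43-fold, 1.84-fold and 1.95-fold after crush (adjusted p of 0.000263 or less). The difference in its injury effect did not pass the test at any day. Polr2f, a polymerase subunit gene next to Sox10 that does not overlap it in the RefSeq annotation on GRCr8, had 37.4 to 73.4 FPKM in Schwann cells and 41.2 to 66.8 FPKM in whole nerve.

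A second table of the authors holds Cufflinks FPKM in columns named by day and sample number but not by tissue, which were taken as the Schwann cell groups because the study describes its module analysis as one of purified Schwann cells. In it Sox10 had a larger rise: its mean was 1.35, 1.62 and 2.01 times the uncrushed mean at days 3, 5 and 7, where the RSEM values gave 1.02, 1.01 and 1.41 times. The shift was shared with the rest of that table. Over about 6230 genes the median difference between the 2 quantifications in the log2 ratio to uncrushed was 0.40, 0.65 and 0.47, and the 7 of these 10 genes that the second table holds shifted by 0.29 to 0.44, 0.57 to 0.71 and 0.39 to 0.54.

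Pou3f1, the POU-domain factor of the promyelinating stage also called Oct6, fell at day 3 and recovered in Schwann cells, and rose from day 5 in whole nerve. In Schwann cells it stood at 23.3 and 21.6 FPKM uncrushed, 5.95 and 7.36 (day 3), 28.6 and 23.3 (day 5), then 32.3 and 34.98 (day 7). It fell 3.23-fold at day 3 (log2 fold change -1.69, SE 0.15, adjusted p = 1.11e-05), was not called at day 5 (0.19, adjusted p = 0.288) and was higher than uncrushed at day 7 (0.54, adjusted p = 0.0113), a call that was lost without day 7 replicate 2 (adjusted p = 0.0597). In whole nerve it stood at 2.02 and 3.32 FPKM uncrushed, 2.80 and 2.51 (day 3), 12.2 and 15.1 (day 5), then 16.3 and 16.03 (day 7). The uncrushed and day 3 libraries overlapped, and both later groups were above them, by 3.94-fold at day 5 and 4.66-fold at day 7 (adjusted p = 4.22e-05 and 2.52e-05). The injury effect differed between the tissues at each day, by -1.41, -1.92 and -1.80 on the log2 scale (adjusted p = 0.00177, 9.25e-05 and 1.79e-04). The uncrushed level was 6.94-fold higher in Schwann cells than whole nerve, and at days 3, 5 and 7 the difference was 2.60-fold, 1.83-fold and 1.99-fold.

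Zeb2, a repressor with zinc fingers and a homeodomain that silences inhibitors of myelination, had the highest FPKM of the 10 genes in every group, and its fitted log2 fold changes from uncrushed lay between -0.49 and 0.10. In Schwann cells it stood at 489.5 and 390.4 FPKM uncrushed, 282 and 252 (day 3), 307 and 269 (day 5), then 328 and 382 (day 7). Whole nerve held it at 207 and 205 FPKM uncrushed, 209 and 222 (day 3), 255 and 286 (day 5), then 269.5 and 329 (day 7). Its effective length, which enters the FPKM but not the fit, differed between libraries from 4974.50 bases in uncrushed Schwann cells replicate 1 to 6826.71 bases, so FPKM and fitted values need not move together. In the fit Zeb2 fell in Schwann cells at days 3 and 5 (log2 fold change -0.45 and -0.49, SE 0.111 for both, adjusted p = 0.00731 and 0.00452) and not at day 7 (-0.08, adjusted p = 0.572). In whole nerve it fell at day 3 (-0.41, adjusted p = 0.00673), although its FPKM was no lower there, with 0.02 and 0.10 at days 5 and 7. Its mean FPKM went from 206.1 uncrushed to 215.5 at day 3 in whole nerve. Scaled by the normalisation factors of the fit of all 16 libraries, the mean level went from 251.2 to 207.3. Effective length enters both values. The 3 calls against uncrushed were each lost without 1 library, namely Schwann cell day 3 replicate 2 (adjusted p = 0.0753), Schwann cell day 5 replicate 2 (adjusted p = 0.0515) and whole nerve day 3 replicate 1 (adjusted p = 0.0625). An antisense gene, Zeb2os, overlaps the locus, and the library kit is not stated to keep strand; Zeb2os had 0.30 to 2.12 FPKM over all libraries.

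Of 3 genes that Zeb2 is known to repress, 1 rose, 1 fell and 1 was not called in Schwann cells at day 3, beside 26.9% of all genes higher and 25.7% lower. Ednrb, the endothelin B receptor, was at 170 to 236 FPKM in uncrushed Schwann cells, 114 to 135 at day 3 and 507 to 536 at day 7, a fall at day 3 (log2 fold change -0.39, adjusted p = 0.029) followed by a rise (1.47 at day 7, adjusted p = 2.05e-05). Sox2, itself one of the 10 genes, rose, and Hey2 was not called at day 3 (-0.53, adjusted p = 0.39) but fell at day 5 (-3.01, adjusted p = 0.00212).

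Sox2, the SoxB1 factor of immature Schwann cells that opposes Egr2, rose in both tissues and stayed up. In Schwann cells it stood at 25.9 and 19.0 FPKM uncrushed, 48.9 and 47.9 (day 3), 49.4 and 42.7 (day 5), then 42.0 and 53.8 (day 7). Whole nerve held it at 0.78 and 1.20 FPKM uncrushed, 13.3 and 16.04 (day 3), 13.5 and 15.5 (day 5), then 9.58 and 14.4 (day 7). In each tissue all 6 injured libraries were above both uncrushed ones, and the 3 injured groups overlapped each other. The rise was 2.24-fold, 2.02-fold and 2.08-fold in Schwann cells over the injury days (adjusted p = 2.22e-04, 5.40e-04 and 5.53e-04) and 11.5-fold, 11.3-fold and 9.38-fold in whole nerve (adjusted p = 2.34e-06, 3.33e-06 and 8.68e-06). The difference in the injury effect was -2.47, -2.62 and -2.30 on the log2 scale (adjusted p = 9.20e-05, 5.63e-05 and 2.11e-04). In the uncrushed libraries Sox2 was 18.8-fold higher in Schwann cells than whole nerve (log2 difference 4.23, SE 0.268), against 3.40-fold, 3.07-fold and 3.83-fold at days 3, 5 and 7. In TPM the uncrushed means of Sox2 were 50.1 and 1.56, wider apart than the fitted fold. Sox2 was the member with the highest difference between the uncrushed tissues, beside the median of 5.17 for the immediate-early genes, whose part in it was not tested. Sox2 lies within a long noncoding gene, LOC103691527, in the RefSeq annotation, and reads of both may be shared; that gene had 141 to 174 FPKM in Schwann cells and 91.99 to 179 FPKM in whole nerve, where its highest group was uncrushed.

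Id2, which lacks a DNA-binding region and blocks other helix-loop-helix factors, fell furthest of the members in Schwann cells at day 3. The Schwann cell libraries held it at 76.2 and 82.3 FPKM uncrushed, 5.04 and 3.98 (day 3), 18.0 and 19.97 (day 5), then 24.1 and 25.6 (day 7). Whole nerve held it at 8.46 and 8.86 FPKM uncrushed, 4.77 and 5.66 (day 3), 8.72 and 9.23 (day 5), then 10.1 and 9.43 (day 7). No 2 Schwann cell groups overlapped, whereas in whole nerve the day 3 libraries lay below the uncrushed ones, day 5 overlapped them and day 7 lay above them in FPKM. Id2 fell 17.3-fold in Schwann cells at day 3 (log2 fold change -4.12, SE 0.166, adjusted p = 9.54e-08), with -2.11 at day 5 and -1.73 at day 7 (adjusted p = 2.49e-06 and 1.17e-05), and 2.19-fold in whole nerve at day 3 (-1.13, SE 0.221, adjusted p = 0.002), with no call at days 5 and 7 (-0.36 and -0.24, adjusted p = 0.212 and 0.447). The difference in the injury effect was -3.09, -1.87 and -1.61 on the log2 scale (adjusted p = 5.86e-07, 2.94e-05 and 1.24e-04). Uncrushed, Id2 was 7.39-fold higher in Schwann cells than whole nerve; at day 3 the log2 difference was -0.20 (SE 0.182, adjusted p = 0.36), and at days 5 and 7 Id2 was again higher, 2.02-fold and 2.42-fold. Its pattern in Schwann cells followed that of Egr2, with a Pearson correlation of 0.991 over the 8 Schwann cell libraries and 0.686 over the 8 whole nerve libraries, on log2 FPKM plus 1; libraries of a group share their condition, and the value is a description.

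Pax3, a paired-box factor of the neural crest and of immature Schwann cells, was close to the limit of detection. It had 19 expected counts in each uncrushed Schwann cell library (0.42 and 0.47 FPKM), 6 and 5 (day 3), 4 and 4 (day 5), then 3 and 0 (day 7). In whole nerve the highest count was 4, in an uncrushed library, and the 0 counts seen there in 4 libraries allow levels of up to 0.0568 to 0.0996 FPKM, counting error only. The uncrushed Schwann cell libraries thus lay above the other 14. Pax3 passed the filter on low counts through the uncrushed Schwann cell libraries alone. The direction of its calls was therefore fixed by the filter, and they are descriptions. The fitted log2 fold change was -2.35 (SE 0.717, adjusted p = 0.0202) at day 3 and -2.63 (SE 0.745, adjusted p = 0.0138) at day 5. With both day 7 libraries set at 3 counts, Pax3 was 7.27-fold lower there than uncrushed. That value is not a bound, since replicate 1 held 3 observed counts and the uncrushed counts have an error of their own. The day 3 call was lost with DESeq2 and without uncrushed replicate 1 or 2 or day 3 replicate 2, and the day 5 call without any one of its 4 libraries, with adjusted p of 0.0110 to 0.157 and 0.00493 to 0.0900 over all alternatives.

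Olig1, a helix-loop-helix factor of the oligodendrocyte lineage, was at or below 10 counts and 0.29 FPKM in all 16 libraries and did not pass the filter in any of the 3 fits. Both uncrushed Schwann cell libraries held 0 counts, which allows a level of up to 0.109 and 0.122 FPKM in them. The uncrushed whole nerve libraries held 9 and 3 counts. Without the filter on low counts edgeR called Olig1 lower in uncrushed Schwann cells than whole nerve, as DESeq2 did, and called its injury effect different at day 5; these calls rest on counts of at most 10.

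Runx2, a Runt-domain factor best known for bone formation, had the largest rise of the 10 genes and was highest at day 3 in both tissues. The Schwann cell libraries held it at 2.10 and 2.16 FPKM uncrushed, 147 and 149 (day 3), 69.0 and 75.1 (day 5), then 50.6 and 64.8 (day 7). In whole nerve it stood at 0.83 and 0.62 FPKM uncrushed, 28.04 and 25.6 (day 3), 18.7 and 23.2 (day 5), then 11.4 and 13.4 (day 7). The 4 groups of each tissue did not overlap. Runx2 rose 68.6-fold, 31.7-fold and 24.9-fold in Schwann cells over the injury days (log2 fold change 6.10, SE 0.154, adjusted p = 4.09e-08 at day 3; 6.49e-08 and 1.02e-07 later) and 27.0-fold, 21.1-fold and 12.4-fold in whole nerve (adjusted p = 1.73e-08, 4.08e-08 and 2.32e-07). It fell again from day 3 to day 7, by 1.46 on the log2 scale in Schwann cells and by 1.12 in whole nerve (adjusted p = 6.31e-05 and 2.28e-04). The injury effect was larger in Schwann cells at day 3 (difference 1.24, adjusted p = 0.00149) and at day 7 (0.89, adjusted p = 0.014, 0.157 without whole nerve uncrushed replicate 1), and at day 5 the difference was 0.46 (adjusted p = 0.174). Runx2 was 2.42-fold higher in Schwann cells than whole nerve when uncrushed and 5.72-fold, 3.34-fold and 4.48-fold higher at days 3, 5 and 7. Supt3h, which overlaps Runx2 in the RefSeq annotation and whose reads may be shared with it, had 2.69 to 8.11 FPKM in Schwann cells and 2.30 to 4.41 FPKM in whole nerve.

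Cited2, a cofactor that binds the coactivators CBP and p300 and has no DNA-binding domain, rose in Schwann cells and, less far, in whole nerve. In Schwann cells it stood at 8.93 and 10.3 FPKM uncrushed, 39.6 and 45.0 (day 3), 54.2 and 53.0 (day 5), then 39.98 and 67.6 (day 7). Whole nerve held it at 13.0 and 10.5 FPKM uncrushed, 25.9 and 27.9 (day 3), 28.3 and 29.2 (day 5), then 17.7 and 26.2 (day 7). All 6 injured libraries of each tissue were above its uncrushed ones, and the day 7 libraries were the widest apart. Cited2 rose 4.56-fold, 5.47-fold and 5.41-fold in Schwann cells (adjusted p = 3.23e-05, 1.71e-05 and 2.51e-05) and 1.72-fold and 1.84-fold in whole nerve at days 3 and 5 (adjusted p = 0.00333 and 0.00218). At day 7 in whole nerve the log2 fold change was 0.48 (SE 0.169, adjusted p = 0.052, 0.00127 to 0.39 over the alternatives). The difference in the injury effect was 1.31, 1.45 and 1.83 (adjusted p = 0.006, 0.00294 and 6.15e-04). Uncrushed, Cited2 was lower in Schwann cells than whole nerve in FPKM and in the fit (log2 difference -0.61, SE 0.232, adjusted p = 0.0326, 1.55e-04 to 0.0564 over the alternatives that keep 2 libraries per group). In TPM its mean was higher in Schwann cells (21.4 against 18.5), but the single libraries overlapped (20.28 and 22.57 against 20.33 and 16.7). After crush Cited2 was higher in Schwann cells by 0.70, 0.84 and 1.23 on the log2 scale at days 3, 5 and 7. The day 3 call (adjusted p = 0.00913) was lost without Schwann cell day 3 replicate 2 or whole nerve day 3 replicate 1, with adjusted p of up to 0.0676. The uncrushed call was lost without uncrushed replicate 1 of Schwann cells (adjusted p = 0.167) or of whole nerve (0.211) and with upper quartile normalization (0.0564).

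**Figure D2:**
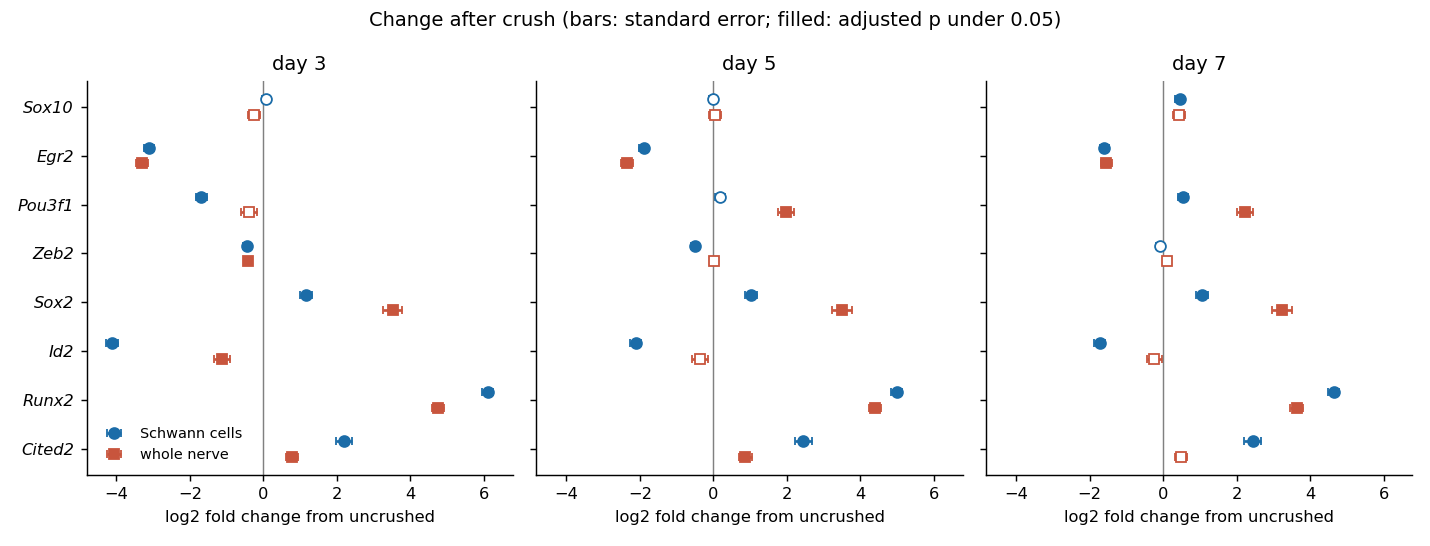
Log2 fold change from uncrushed on each injury day for 8 of the 10 genes; circles are Schwann cells, squares whole nerve, bars the standard error, and filled symbols an adjusted p under 0.05. Runx2 reaches 6.10 and Id2 -4.12 in Schwann cells at day 3, and the symbols of Egr2 lie close together at all 3 days.

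Counted together, 8 of the 9 tested members were called at day 3 in Schwann cells (3 higher and 5 lower), beside 52.5% of the 14961 genes tested (26.9% higher and 25.7% lower). At day 5 there were 7 calls (3 higher and 4 lower), beside 54.6% of genes (29% higher and 25.6% lower), and at day 7 there were 8 (5 higher and 3 lower), beside 46.9% (25% higher and 21.9% lower). Pax3 is among those counted as lower at all 3 days, a direction set by the filter. The median log2 fold change of the tested members was -0.45, -0.01 and 0.45 at the 3 days, beside 0.00, 0.06 and 0.06 over all genes. In whole nerve 6 of the 8 tested members were called at day 3 (3 higher and 3 lower), beside 45.6% (23.1% higher and 22.5% lower) of 15831 genes. There were 5 calls at day 5 (4 higher and 1 lower), beside 38.4% (18.9% higher and 19.5% lower), and 4 at day 7 (3 higher and 1 lower), beside 31.3% (15.4% higher and 15.9% lower). Sox2 and Runx2 rose, and Egr2 fell, at all 3 days in both tissues; the comparisons with one uncrushed group share those libraries.

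From day 3 to day 5 the test called 4 members in Schwann cells, with Egr2, Pou3f1 and Id2 higher and Runx2 lower, beside 12.5% of all genes (6.09% higher, 6.36% lower). Over the same interval 4 were called in whole nerve, all higher (Egr2, Pou3f1, Id2 and Zeb2), beside 11.5% (5.68% higher, 5.87% lower), and of 11 alternatives 8 lost the call of Id2, 3 that of Zeb2 and 2 that of Egr2. From day 3 to day 7 6 were called in each tissue (5 higher and Runx2 lower), beside 21% (10.2% higher and 10.7% lower) of genes in Schwann cells and 21.2% (9.85% higher and 11.4% lower) in whole nerve. Those that rose were Sox10, Egr2, Pou3f1, Id2 and Zeb2 in either tissue. In Schwann cells the calls of Sox10 and Zeb2 (adjusted p = 0.0453 and 0.0430) were each lost without any one of the 4 libraries compared, with adjusted p of up to 0.218 and 0.245. In whole nerve the call of Sox10 was lost under 3, of Id2 under 4 and of Zeb2 under 1 of 11 alternatives, each time including the one without day 3 replicate 1. From day 5 to day 7 the edgeR test called 0 members in Schwann cells, beside 1.95% of all genes (1.18% higher, 0.769% lower); 6 were at an unadjusted p under the threshold, and DESeq2 called Sox10 and Zeb2. In whole nerve 2 were called over the same interval, Egr2 higher and Runx2 lower (log2 fold change 0.81 and -0.76), beside 7.4% (3.65% higher, 3.75% lower).

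Between the tissues, 9 of 9 tested members differed in the uncrushed nerve, 8 higher in Schwann cells and Cited2 lower (higher in mean TPM, with overlapping libraries), beside 64.4% of 16829 genes (29.1% higher, 35.3% lower). For Pax3 the adjusted p was 0.0196, with 0.0172 to 0.0645 over the alternatives that keep 2 libraries per group. Its direction was set by the filter, which it passed through the uncrushed Schwann cells alone. The median log2 difference of the members was 2.55 beside -0.10 for all genes. The size of a difference between the tissues depends on the scale. In TPM the uncrushed means in Schwann cells and whole nerve were 620 and 61.0 for Egr2 and 143 and 39.6 for Sox10. Both pairs are wider apart than the fitted folds. After crush 7 members were higher and 0 lower at each day, beside 57.3% (24.5% higher and 32.8% lower), 51.7% (23.2% higher and 28.4% lower) and 51% (22.4% higher and 28.7% lower) of all genes in order of day, with medians of 1.38, 1.01 and 1.23. At day 3 the call of Zeb2 (0.36, adjusted p = 0.0106) was lost without day 3 replicate 1 of Schwann cells or of whole nerve. The injury effect differed for 5 members at each day, beside 26% (12.3% higher and 13.7% lower), 27.5% (12.6% higher and 14.9% lower) and 26% (11.6% higher and 14.4% lower) of all genes; these were Pou3f1, Sox2, Id2 and Cited2 at each of the 3 days, with Runx2 at days 3 and 7 and Zeb2 at day 5 (-0.63, adjusted p = 0.00681).

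**Figure D3:**
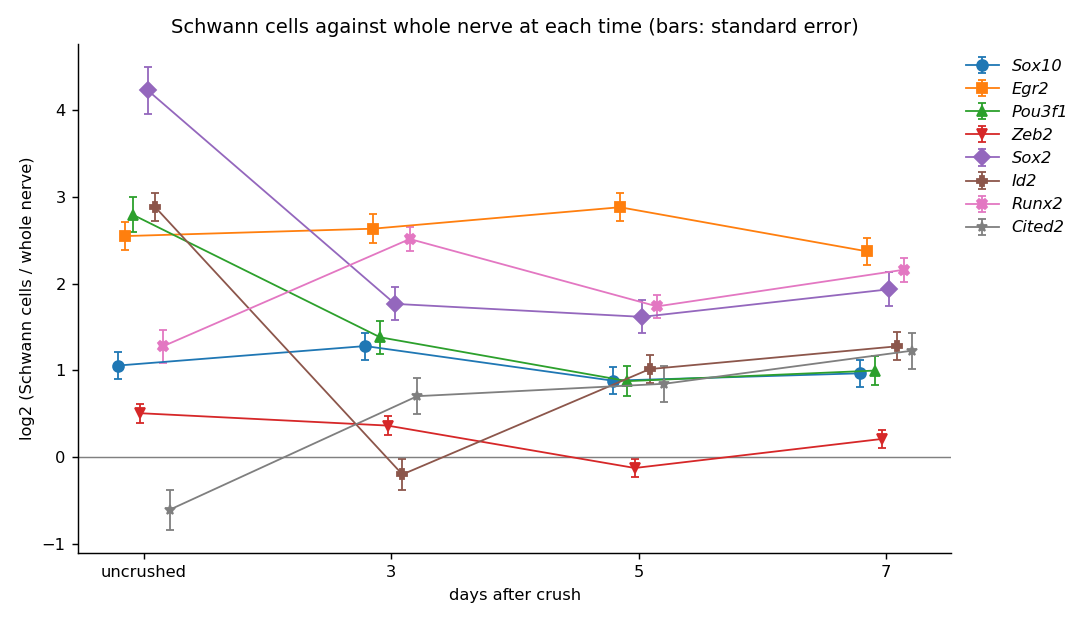
Log2 ratio of Schwann cells to whole nerve at each time for 8 of the 10 genes, with the standard error as bars. Egr2 stays between 2.37 and 2.88, Sox2 drops from 4.23 to 1.77 between uncrushed and day 3, and Cited2 goes from -0.61 to 0.70. In TPM the uncrushed mean of Cited2 is higher in Schwann cells, with single libraries that overlap.

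Other regulators of the same programs are given by their counts, beside 26.9% of all genes higher and 25.7% lower in Schwann cells at day 3 and 23.1% higher and 22.5% lower in whole nerve at day 3. Of 15 promyelinating regulators, such as the Nab corepressors of Egr2 and the Tead and Yap factors of Hippo signalling, 3 were higher and 7 lower in Schwann cells at day 3 (median log2 fold change -0.31), against 2 higher and 6 lower in whole nerve (median -0.39). Srebf2, which controls cholesterol synthesis, fell by 2.20 on the log2 scale and the retinoid receptor Rxrg by 1.73, while Nfatc4 changed by 2.51 and Yap1 by 0.98. Of 15 tested regulators of the immature and negative program 3 were higher and 7 lower in Schwann cells (median -0.59), against 8 higher and 1 lower in whole nerve (median 0.48). That list holds Egr1, Egr3 and Jun, which are immediate-early genes, and the list of repair regulators holds Atf3 and Jun; the median difference in injury effect of the immediate-early list was -3.51 at day 3, and its part in these counts was not tested. Sox4 and Tfap2a rose in Schwann cells (1.82 and 2.16) and Etv1 and the Notch target Hes1 fell (-2.89 and -2.85). Of 11 tested repair regulators 3 were higher and 4 lower in Schwann cells (median -0.37), against 7 higher and 1 lower in whole nerve (median 0.72). Fosl1 and Hif1a rose in Schwann cells (2.7 and 1.38), and Gli1 and Stat3 fell (-2.19 and -0.97).

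Jun, a factor known to drive the repair state, was at 383 to 408 FPKM in uncrushed Schwann cells and 9.39 to 10.3 FPKM in uncrushed whole nerve. After crush it changed by -0.77 in Schwann cells and 1.95 in whole nerve at day 3 (adjusted p = 1.28e-04 and 6.85e-07). Its injury effect differed by -2.82 (adjusted p = 3.92e-08). Jun is itself induced as an immediate-early gene, and the 10 genes of that list had a median uncrushed log2 difference of 5.17 between the tissues, beside 5.02 for Jun, and a median difference in injury effect of -3.51 at day 3; the part of this in the values of Jun was not tested. Jun is not among the transcription factors described here and was named after its values had been seen.

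Of 22 relatives of the members 11 passed the filter in Schwann cells, of which 3 were higher and 5 lower at day 3 (median log2 fold change -0.50), beside the same 26.9% and 25.7% of all genes. In whole nerve 6 of 11 were higher and 1 lower (median 0.48), beside 23.1% and 22.5%. Sox8 and Sox9, the other SoxE genes, rose in Schwann cells at day 3 (1.69 and 1.63), where Sox10 was not called. Sox9 was far lower in Schwann cells than whole nerve (log2 difference -4.95 uncrushed). Egr1 and Egr3 fell with Egr2 in Schwann cells (-2.74 and -2.24) and rose in whole nerve (0.83 and 0.82), where Egr2 fell. Both are among the immediate-early genes.

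**Figure D4:**
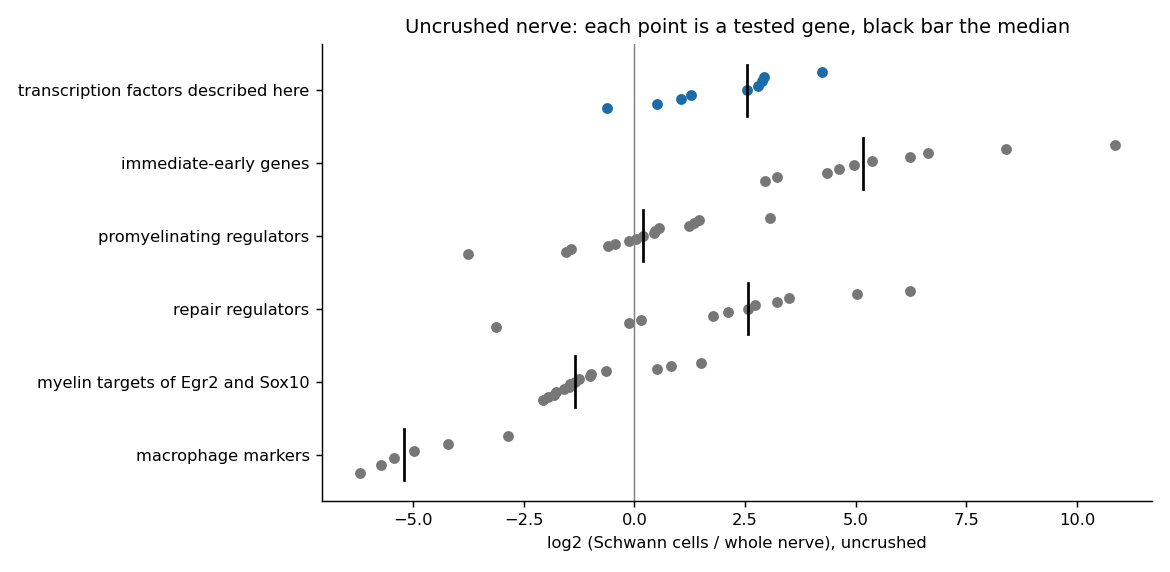
Log2 ratio of uncrushed Schwann cells to uncrushed whole nerve for each tested gene of 6 lists, with a black bar at each list's median. The medians are 2.55 for the transcription factors described here, 5.17 for immediate-early genes, -1.35 for myelin targets and -5.21 for macrophage markers.

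Across the 16 libraries, the genes whose log2 level followed each member most closely were named by Pearson correlation over 12803 genes, as descriptions of libraries that share groups. Runx2 was followed by Fgf5 (0.995), Egr2 by Tox (0.987) and Tspyl2 (0.982), Sox10 by Pogz (0.982) and Plekhm3 (0.974), and Pou3f1 by Ick (0.975) and RGD1306271 (0.969). Sox2 was followed by Atp2a2 and LOC102549726 (0.987 for both), Id2 by Cab39l (0.971) and Adamts17 (0.964), Cited2 by Plppr2 (0.984) and Plxna1 (0.981), and Zeb2 by Msl2 (0.945) and Kansl1l (0.940). Pax3 and Olig1 were too low to rank. Among the members themselves, Runx2 and Cited2 had the highest correlation over the 16 libraries (0.928). In whole nerve the highest was that of Runx2 and Sox2 (0.979). In Schwann cells Runx2 and Sox2 were at 0.936, below Egr2 and Id2 (0.991) and Sox2 and Cited2 (0.941). Egr2 and Runx2 were at -0.941 in Schwann cells and -0.918 in whole nerve.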

How the data were processed

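Total RNA from 16 samples (8 groups of 2) was made into cDNA libraries with the Ovation RNA-seq system V2, which amplifies cDNA, with no molecular identifiers and no stated strand. Per the labels and the methods of the study, the authors aligned reads with STAR to Rnor_6.0 and quantified genes with RSEM, and each deposited gene table gives expected counts, FPKM and TPM per library. A further deposited table holds the authors' Cufflinks FPKM for the Schwann cell groups and a module assignment made by the authors, which was not used; the number of per-sample columns left without a sample was 0. The deposited matrix of counts repeats the RSEM expected counts and was not used.

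After rounding of the expected counts, genes were tested with edgeR 4.0.16 in R 4.3.3 (TMM, filterByExpr, quasi-likelihood test, Benjamini-Hochberg over all genes tested, threshold 0.05). Comparisons within a tissue used its 8 libraries, and comparisons between tissues and of injury effects all 16. The standard error is the absolute log2 fold change over the square root of F. With 2 against 2 libraries an exact permutation test cannot go below p = 0.333, so single values were not tested that way. Levels are RSEM FPKM. Likeness was the Pearson correlation of log2(FPKM + 1) over genes with a mean of at least 1 FPKM. A floor of 3 counts served for libraries at 0. Intervals and floors cover counting error only. Other settings tried were DESeq2 1.42.0 (Wald test), upper quartile normalization, other filters and sets of libraries, a replicate block, and leaving out each library. The scripts were tested on simulated data.

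Every one of the 10 members is named; of each other list the called genes with the 2 highest and 2 lowest log2 fold changes in Schwann cells at day 3, and of each member the 2 most alike genes; a few genes are not reported here. The members, lists and tests were chosen with earlier results of these data known. Promoters are those of RefSeq on GRCr8; no coordinates were converted.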

Additional observations from a re-analysis of the deposited data

Results flagged for a closer look

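The injury effect (crushed against uncrushed) differed between Schwann cells and whole nerve for these members, by the interaction term of the edgeR fit of all 16 libraries; values are Schwann cells minus whole nerve on the log2 scale. For Pou3f1 the difference was -1.41 at day 3, -1.92 at day 5 and -1.80 at day 7. Sox2 had -2.47, -2.62 and -2.30, and Id2 had -3.09, -1.87 and -1.61. For Cited2 it was 1.31, 1.45 and 1.83. Runx2 had 1.24 at day 3 and 0.89 at day 7, and Zeb2 had -0.63 at day 5. The 2 uncrushed libraries of each tissue enter all of these values.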

How the results depend on the processing

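Among the counts of members called, 203 of 214 under the alternatives stayed within 1.5 times the reported count. From day 5 to day 7 in Schwann cells the count of 0 became 2 with DESeq2 and 2 with no filter (Sox10 and Zeb2 in both), and 1 (Sox10) with the 4 libraries compared. In whole nerve the count from day 5 to day 7 went from 2 to 4 with no filter, and to 0 to 2 on leaving out 1 library; it was 0 without day 5 replicate 2. From day 3 to day 5 it went from 4 to between 1 and 3 (1 without day 3 replicate 1 or day 5 replicate 2), and from day 3 to day 7 from 6 to between 3 and 6 (3 without day 3 replicate 1). Upper quartile normalization moved the median difference of all genes between the tissues from -0.03 to 0.11 at day 5 and to 0.067 at day 7, and the genes called went from 3907 higher and 4787 lower to 4930 and 4105 at day 5 and from 3763 and 4825 to 4546 and 4299 at day 7. The cause was not tested. In the refits, the values that changed sign were small and not called: with upper quartile normalization Sox10 in Schwann cells at day 3 was -0.0077 and Zeb2 between tissues at day 5 was 0.0090. Leaving out 1 library gave Sox10 -0.065 to 0.20 at day 3 and -0.15 to 0.12 at day 5 in Schwann cells and -0.15 to 0.26 at day 5 in whole nerve, Zeb2 -0.15 to 0.00041 in Schwann cells at day 7 and -0.058 to 0.11 and -0.0063 to 0.23 in whole nerve at days 5 and 7, and injury effects of -0.12 to 0.34 for Egr2 at day 3 and -0.38 to 0.032 and -0.32 to 0.18 for Sox10 at days 5 and 7. Of the results for single members, 62 lost and 15 gained a call, and 1372 kept both direction and call. Of the ratios of mean level to uncrushed, 42 of 105 moved by more than the replicate spread on another scale, including each one on the Cufflinks scale. Between the uncrushed tissues the mean of Cited2 turned direction in TPM (21.4 in Schwann cells and 18.5 in whole nerve), where the single libraries overlapped. Of the 16 most alike genes, 10 remained with a pseudocount of 0.1 and 4 with Spearman correlation.

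Same-numbered libraries did not deviate together (correlations of -0.040 to 0.076 within a tissue and -0.055 to 0.047 between tissues), so the numbers only name them. With the replicate number as a block, the count was 8, 7 and 8 in Schwann cells and 6, 5 and 5 in whole nerve at days 3, 5 and 7, 5 for each injury effect, 4 and 5 in Schwann cells and 3 and 6 in whole nerve for days 5 and 7 against day 3, and unchanged elsewhere. Against the counts without it, Zeb2 was lost in Schwann cells between days 3 and 7, Id2 was lost in whole nerve between days 3 and 5, and Sox10 was gained in whole nerve at day 7.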
